A study of Mus musculus with 20 samples.

Results

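The genes described here encode subunits of the mitochondrial respiratory chain and of ATP synthase, followed in RNA sequencing libraries of mouse CD4 T cells. They were chosen by gene symbol alone, as protein-coding genes of the GENCODE M21 annotation (GRCm38) whose symbols mark subunits of complexes I to V. Of 97 annotated genes with such symbols, 96 had a row in the count tables, among 39179 genes in all. The nucleus encodes 83 of them: 35 for complex I, 4 for complex II, 7 for complex III, 20 for complex IV and 17 for complex V. The mitochondrial genome encodes the other 13, namely 7 for complex I, 1 for complex III, 3 for complex IV and 2 for complex V. A filter on low counts left 84 of the 96 for testing in the transfer experiments and 88 in the culture experiment.

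Complex I (NADH dehydrogenase) and complex II (succinate dehydrogenase) feed electrons to ubiquinone. Complex III passes them to cytochrome c and complex IV to oxygen, and complex V uses the resulting proton gradient to make ATP. Complex II is coded wholly in the nucleus, while the other complexes combine nuclear subunits with subunits made inside the mitochondrion from polycistronic transcripts of its own DNA. Naive T cells are small resting cells that rely largely on oxidative metabolism, and activated T cells grow, divide and enlarge their mitochondrial content.

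All cells were C57BL/6 CD4 T cells carrying a reporter that places Thy1.1 under control of the IL-17F gene. Wild-type (WT) cells carried CD45.1, and cells labelled Il6ra-/-, which lack the IL-6 receptor alpha chain per the labels, carried CD45.2. In the transfer experiments, T cells were cultured for 6 days with irradiated splenic antigen-presenting cells, hyper-IL-6 (IL-6 fused to its soluble receptor, 20 ng/ml) and TGF-beta (2.5 ng/ml), and were sequenced before transfer (2 libraries per genotype). Rag1-/- mice, which have no mature T or B cells of their own, then received 200000 cells of each genotype together. After 4 weeks live CD4+TCRb+ cells were sorted by genotype from pooled colons (3 libraries per genotype). In the culture experiment, naive CD4 T cells, WT and Il6ra-/-, were sequenced beside WT cells cultured for 6 days with IL-6 at 20 ng/ml, and beside WT and Il6ra-/- cells cultured with hyper-IL-6 at 63 ng/ml, all cultures holding TGF-beta at 2.5 ng/ml. These 5 groups had 2 libraries each, and for all 10 libraries, naive ones included, the labels describe PMA and ionomycin for 4 h ahead of the sort. No label ties a library to its own animal, the colon libraries being pools, so the p-values here reflect only how far these libraries scatter, which may be technical.

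Gene counts per library ran from 12718633 to 23745060 in the transfer experiments and from 20160774 to 46848016 in the culture experiment. All 11 T cell markers of a list reached 1 CPM (the standard unit of a gene's count scaled to its library's size, here after TMM) in each of the 9 groups. Il6ra stood at 84.2 and 72.8 CPM in WT and 80.6 and 123 CPM in Il6ra-/- libraries before transfer, and at 10.7, 4.32 and 5.4 against 4.85, 3.46 and 2.53 CPM in the colon. In the culture experiment it was 270 and 421 CPM in naive WT and 199 and 213 CPM in naive Il6ra-/- libraries. After culture it was 37.1 and 30.6 CPM with IL-6, 39.8 and 39.2 CPM in WT with hyper-IL-6, and 32.3 and 31.8 CPM in Il6ra-/- with hyper-IL-6. Which part of the gene was deleted is not in the labels, so whole-gene counts do not check the genotype, and the libraries are named by their labels.

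The results are touched by single libraries that stood apart. Before transfer, the 2 WT libraries differed by a median of 0.88 on the log2 scale over 77 nuclear subunit genes. WT replicate 1 was the higher one, more than 2-fold so in 31 genes, and its share of counts in cytosolic ribosomal protein genes was 3.126% against 1.12% in WT replicate 0. Its alignments to several places numbered 165.7 per 100 gene counts against 98.01. Among short genes (under 1000 bases) the median difference was 0.99 for nuclear subunits and 0.45 for other coding genes. Among longer genes it was 0.59 for the 19 nuclear subunits and -0.07 for other coding genes. The 2 Il6ra-/- libraries before transfer differed by a median of 0.37 over the 77 nuclear genes, with replicate 0 higher in 65. Over the 7 mitochondrially coded genes with counts replicate 0 was higher by a median of 0.58. The cell cycle genes of the list used further on summed to 5464 and 4929 CPM in the Il6ra-/- and WT libraries of replicate 0 and to 2365 and 2665 CPM in those of replicate 1. In the colon, WT replicate 2 stood a median of 1.04 on the log2 scale above the other 2 WT libraries over the 7 mitochondrially coded genes with counts, and 0.47 below them over the nuclear ones. Of the naive WT libraries, replicate 1 stood a median of 0.33 above replicate 2 over the nuclear genes, and its ribosomal protein share was 5.73% against 4.395%.

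Only 7 of the 13 mitochondrially coded genes had appreciable counts. In every library mt-Co1, the catalytic subunit of complex IV, was the highest of them, at 4033 to 16200 CPM in the transfer experiments and 3548 to 6598 CPM in the culture experiment. mt-Cytb, the cytochrome b of complex III, reached 2142 to 7563 and 1322 to 2485 CPM. The complex I genes mt-Nd1, mt-Nd2, mt-Nd4 and mt-Nd5 lay between 502.6 and 7235 CPM. mt-Nd6, the single protein gene read from the other strand of the mitochondrial genome, stayed at 15.82 to 68.52 CPM. The deposited tables carry the word reverse, but no source used here states the strand setting of the counting, so for mt-Nd6 reads from the 2 strands cannot be told apart.

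The other 6 genes, mt-Nd3, mt-Nd4l, mt-Co2, mt-Co3, mt-Atp6 and mt-Atp8, had no count in any of the 10 transfer libraries. Summed over the 10 culture libraries they had 103, 24, 70, 115, 101 and 14 counts. They lie next to each other, from mt-Co2 at chrM:7013-7696 to mt-Nd4l at chrM:9877-10173. Their neighbours mt-Co1 at chrM:5328-6872 and mt-Nd4 at chrM:10167-11544 had many counts. HTSeq counts only reads with a single best place. Of the 50-base stretches of mt-Co2, 100% occur also in another annotated transcript, as do 99.86% of those of mt-Co3, 99.53% of mt-Atp6, 98.79% of mt-Nd4l and 97.99% of mt-Nd3. The share was 62.23% for mt-Nd4 and 51.14% for mt-Co1, and at most 8.19% for the other members with counts. mt-Atp8, at chrM:7766-7969 between mt-Co2 and mt-Atp6, shares no such stretch with an annotated transcript and was near 0 as well. The counts of these 6 genes are not read as their expression here. The sequences below show the start of 2 of them beside their copies on chromosome 1, read from the GENCODE transcripts (GRCm38). The first pair is identical over 681 aligned bases, and the second differs at 1 base of 345, which is in capitals.

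mt-Co2, chrM:7013-7072 (+): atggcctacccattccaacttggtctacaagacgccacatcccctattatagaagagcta
Gm28661, chr1:24615506-24615565 (-): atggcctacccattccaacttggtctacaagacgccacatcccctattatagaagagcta
mt-Nd3, chrM:9459-9518 (+): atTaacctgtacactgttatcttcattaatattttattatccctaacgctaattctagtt
Gm28438, chr1:24613060-24613119 (-): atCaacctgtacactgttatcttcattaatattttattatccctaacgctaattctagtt

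The copies of mt-Co3 (Gm28437, 783 aligned bases), mt-Atp6 (Gm10925, 678) and mt-Nd4l (Gm10222, 294) lie in the same stretch of chromosome 1 and have no mismatch. The copy of mt-Nd4 (Gm28439) has none over 876 bases, and that of mt-Co1 (Gm29216) has 6 over 492.

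**Figure D1:**
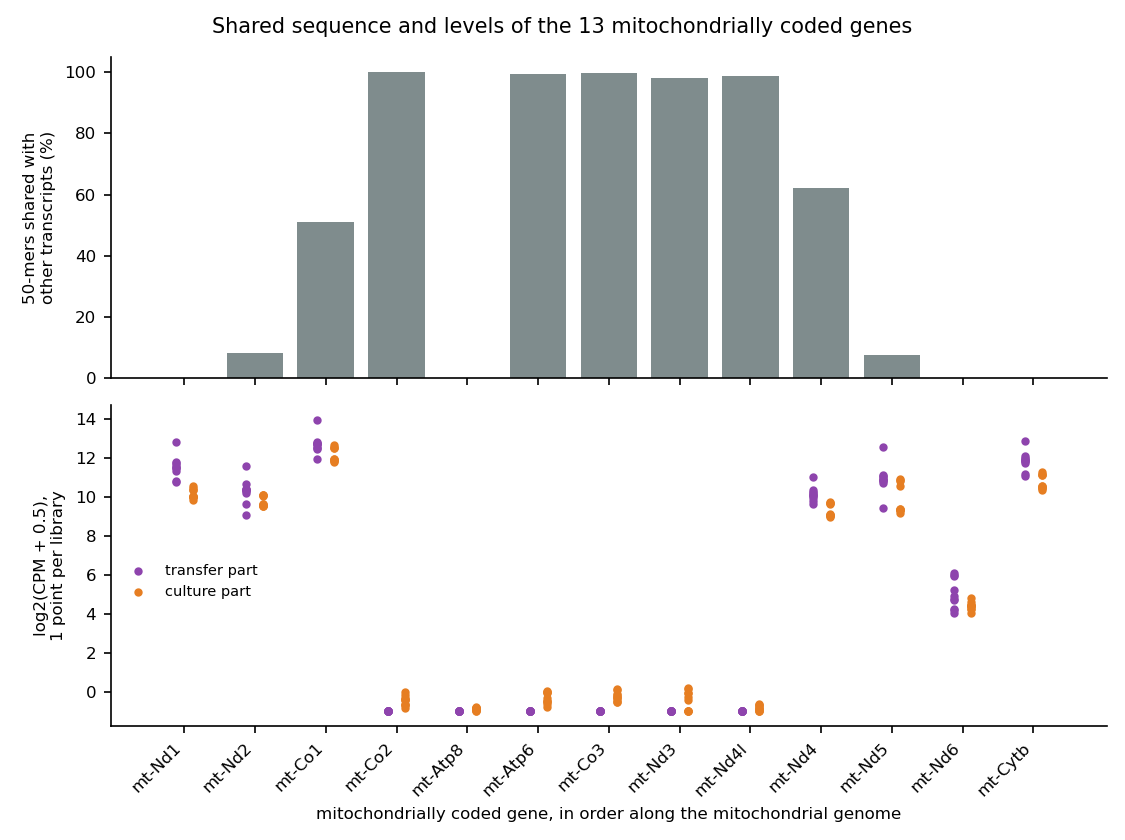
Mitochondrially coded genes in their order along the mitochondrial genome: above, the percent of 50-base stretches found also in another annotated transcript, below, the level in each library as log2(CPM + 0.5), 1 point per library. The 6 adjacent genes from mt-Co2 to mt-Nd4l sit at or near the floor in all 20 libraries, and 5 of them share 97.99% or more of their stretches.

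Nuclear members shared less sequence. Of the 83, 34 share no such stretch with another transcript, 30 share under 10% and 19 share 10% or more. Of the 3 genes for the c subunit of ATP synthase, which encode the same mature protein, Atp5g1 and Atp5g2 stood at different levels in the 2 sets of libraries. Atp5g1 was at 0.8117 to 2.19 CPM in the transfer libraries and at 19.99 to 84.05 CPM in the culture libraries, and Atp5g2 at 0 to 0.494 and at 9.504 to 12.7 CPM. Other transcripts hold 11.1% of the 50-base stretches of Atp5g1 and 38.35% of those of Atp5g2. Atp5g3, which shares no stretch, was at 81.38 to 258.9 and at 91.94 to 252.4 CPM. Alignments to several places were also more frequent in the transfer libraries, at 89.07 to 165.7 per 100 gene counts, than in the culture libraries, at 41.44 to 50.46. Levels were therefore compared within each experiment only.

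Per kilobase of merged exons, mt-Co1, mt-Cytb and mt-Nd1 lay far above the nuclear genes. The mitochondrially coded genes without appreciable counts lay at or near 0, and mt-Nd6 had a mean of 26 CPM over 519 bases in naive WT cells. In naive WT cells mt-Co1 had 4040 CPM per kilobase and mt-Cytb 2070. The highest nuclear genes were Cox6a1, a complex IV subunit, at 192 CPM per kilobase and Atp5a1, the alpha subunit of ATP synthase, at 178. In WT cells cultured with hyper-IL-6 the highest nuclear gene was Atp5b, the catalytic beta subunit, at 313 CPM per kilobase. Of the 8 genes for tissue-restricted isoforms, Cox7b2, Cox8b and Cox8c had no count in any library. Cox6a2, Cox4i2 and Ndufa4l2 stayed at or below 2.032 CPM throughout.

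**Figure D2:**
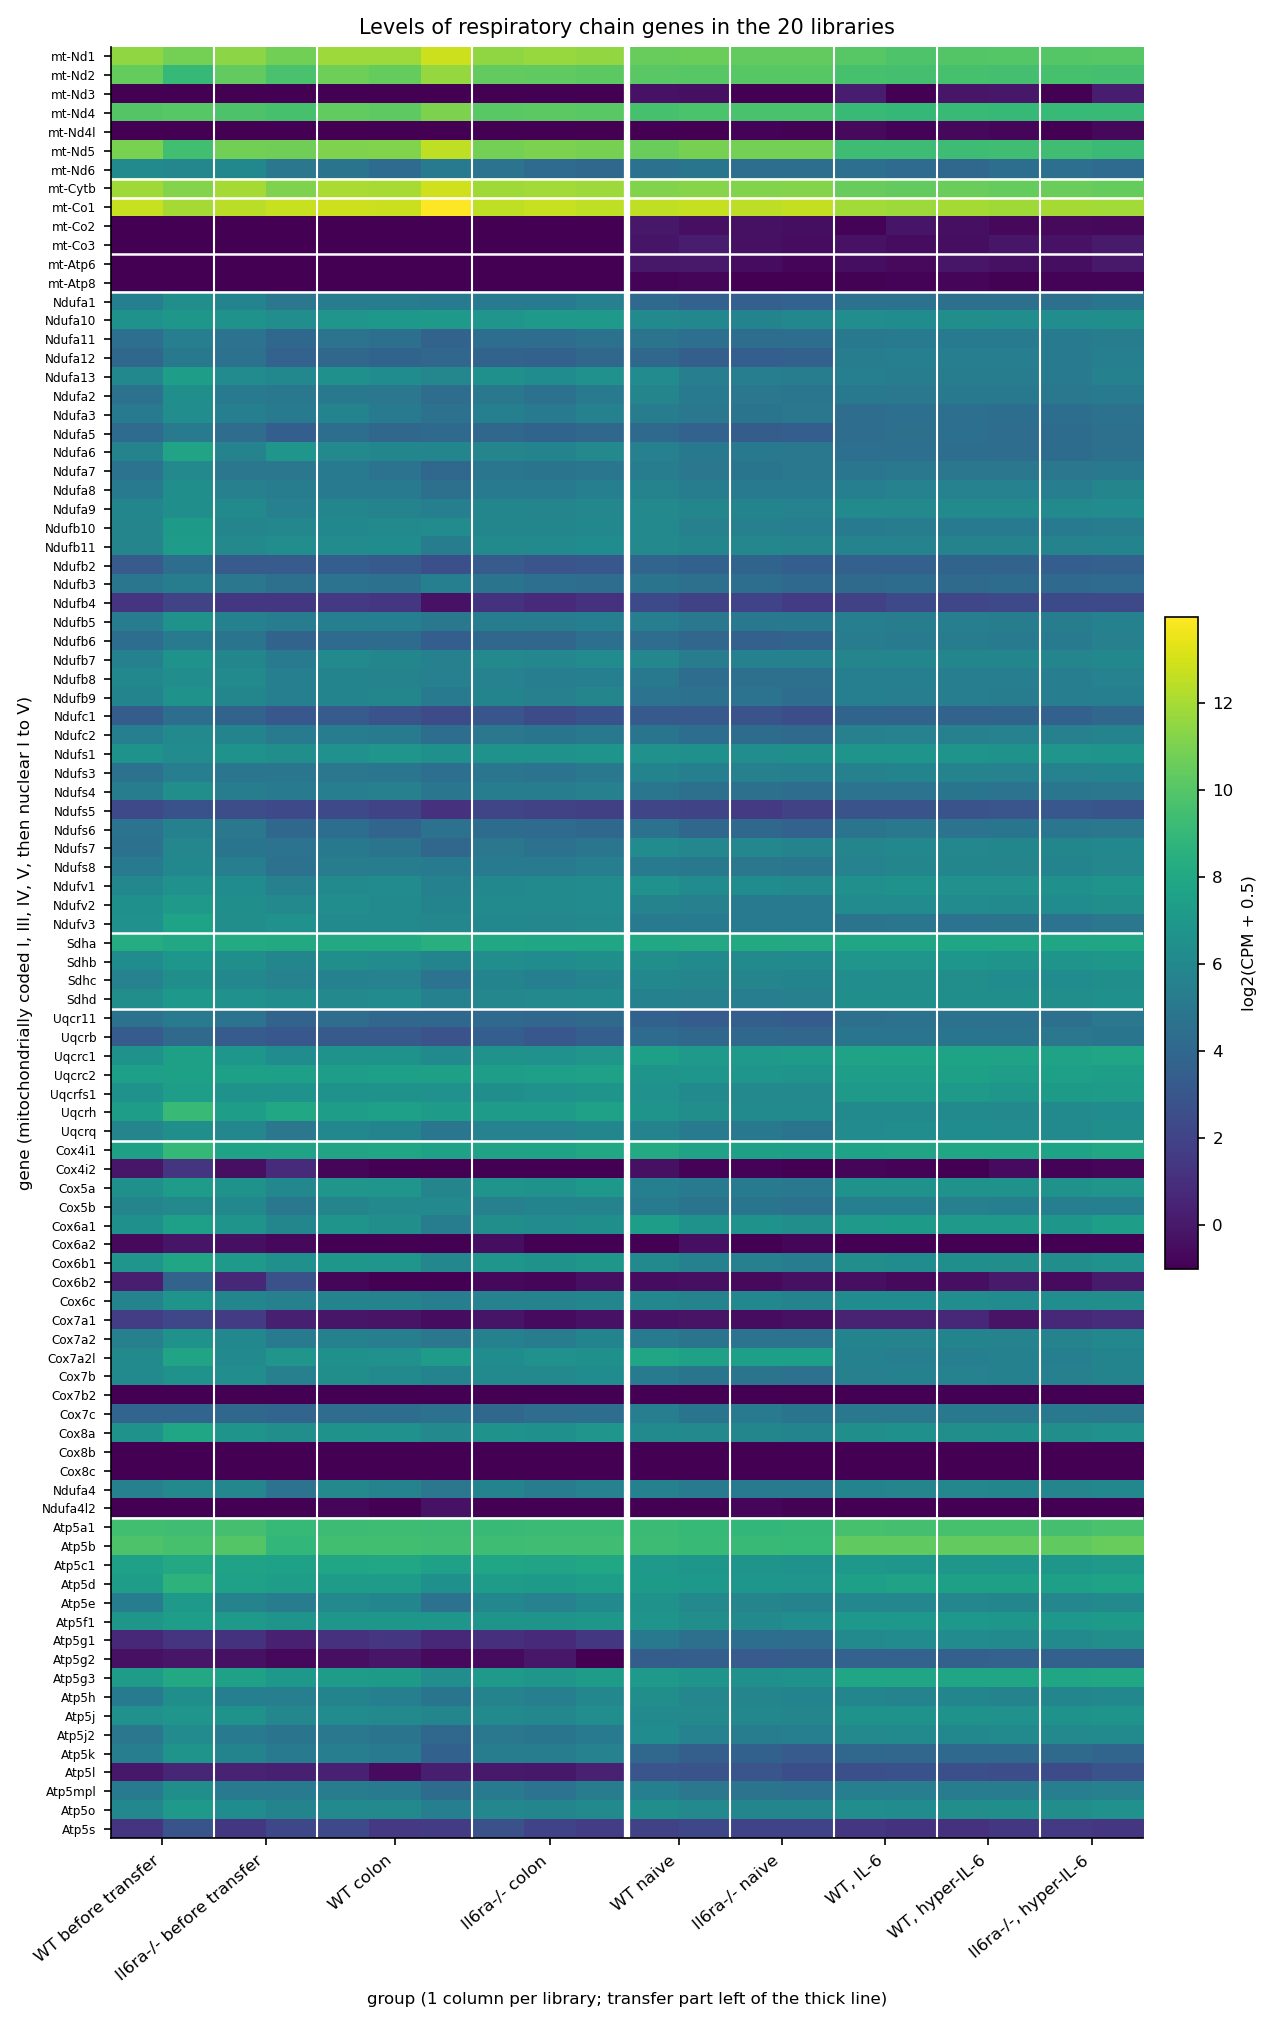
Level of the respiratory chain genes (rows) in each of the 20 libraries (columns) as log2(CPM + 0.5), with mitochondrially coded genes first and nuclear ones after them, by complex. Bright rows are the mitochondrially coded genes with counts other than mt-Nd6, and Atp5a1 and Atp5b. Dark rows are the 6 mitochondrially coded genes without appreciable counts and the tissue-restricted isoforms.

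The comparison of cultured with naive cells asks how respiratory chain transcripts differ between naive T cells and cells after 6 days under Th17 conditions. By the labels both had PMA and ionomycin for 4 h ahead of the sort, so naive does not mean unstimulated here. More nuclear subunit genes rose than fell, and the 7 mitochondrially coded genes with appreciable counts fell in WT cells with hyper-IL-6. In WT cells with hyper-IL-6 against naive WT cells, 37 of 77 tested nuclear genes were higher and 13 lower (edgeR quasi-likelihood test, Benjamini-Hochberg adjusted p under 0.05 over all 14926 genes). Of all genes tested, 70.3% passed in either direction, 36.8% higher and 33.5% lower, so 50 of 77 is near the background, while the 37 to 13 split leaned further to higher values than that of all genes. Their median difference was 0.37 on the log2 scale against 0.04 over all genes. Of the 11 mitochondrially coded genes tested, 7 were lower and none higher, and these 7 are all those with appreciable counts.

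The share of gene counts in the mitochondrially coded genes was 1.25% and 1.417% in the 2 naive WT libraries and 0.8589% and 0.8295% after hyper-IL-6 culture. The nuclear share was 0.5721% and 0.4778% before and 0.72% and 0.7173% after. Neither share overlapped between the groups. Counts in mitochondrially coded genes per count in nuclear ones were 2.58 ± 0.551 (SD, n = 2) in naive WT, 2.91 ± 0.126 (n = 2) in naive Il6ra-/-, and 1.16 ± 0.0808 (n = 2), 1.17 ± 0.0258 (n = 2) and 1.16 ± 0.111 (n = 2) in cells cultured with IL-6, with hyper-IL-6 and, for Il6ra-/-, with hyper-IL-6. The share of ribosomal protein genes was 4.008% to 5.73% in naive and 3.194% to 3.716% in cultured libraries. In bulk RNA, fewer cells of a type and less RNA per cell cannot be told apart.

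**Figure D3:**
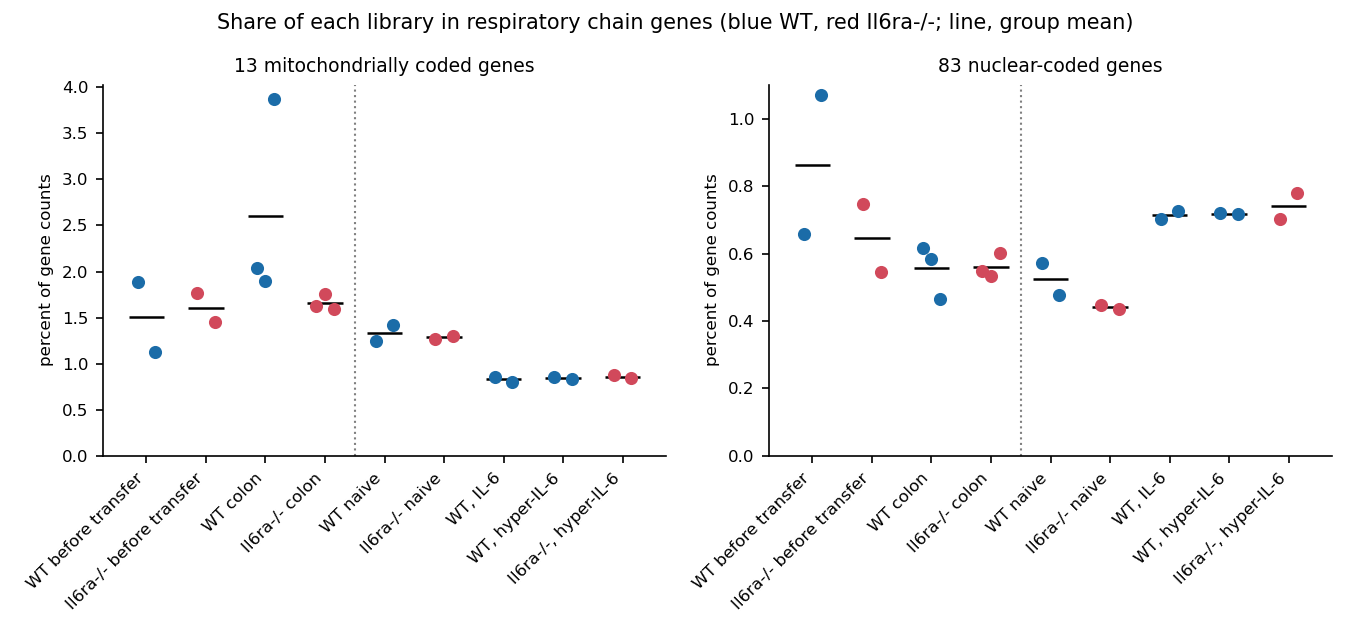
Percent of each library's gene counts in the 13 mitochondrially coded genes (left) and the 83 nuclear genes (right), 1 point per library and a line at the group mean. Right of the dotted line, cultured cells lie below naive cells on the left panel and above them on the right panel, and the WT colon library at 3.877% stands apart.

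Genes for the catalytic head and the rotor ring of ATP synthase rose. Atp5b (chr10:128083273-128090391) had 618.2 and 564.4 CPM in naive WT cells and 1328 and 1326 CPM after hyper-IL-6 culture, so the naive libraries were both below the cultured ones. The log2 fold change was 1.17 (SE 0.088, adjusted p = 5.18e-07). Atp5g1, for the membrane ring of the rotor, went from 33.04 and 22.54 to 74.29 and 69.95 CPM (1.38, SE 0.162, adjusted p = 1.83e-05). Atp5g3, for the same ring, went from 132.5 and 108.4 to 230.5 and 233 CPM, and Atp5a1 from 583.8 and 532.4 to 787.5 and 791.3 CPM. All 3 of these genes had groups that did not overlap and passed the test. The third ring gene, Atp5g2, changed by 0.16 (adjusted p = 0.319) and did not pass. Summed over the 17 nuclear genes of complex V, the level was 1930 to 2250 CPM in naive WT libraries and 3220 to 3560 CPM in the 6 cultured ones. In all, 7 genes of complex V were higher and 3 lower, the lower ones being Atp5s (-0.97), Atp5e (-0.45) and Atp5h (-0.41), named after their values were seen. Without naive WT replicate 1 the values of Atp5e and Atp5h were -0.10 and -0.15 and did not pass. Atp5e was also lost without either hyper-IL-6 library (-0.45 and -0.43), Atp5h without hyper-IL-6 replicate 2 (-0.32), and Atp5s without hyper-IL-6 replicate 1 or naive WT replicate 2 (both -0.76).

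The largest decrease among the members tested was that of Cox7a2l (chr17:83501918-83517330), grouped with complex IV, whose protein has been linked to supercomplexes. Its function in these cells was not tested. It had 225.5 and 191.4 CPM in naive WT cells and 44.16 and 47.24 CPM after hyper-IL-6 culture, 4.56-fold lower (log2 fold change -2.19, SE 0.119, adjusted p = 4.11e-08). Its closest relative Cox7a2, a subunit of complex IV itself, went the other way, from 36.66 and 26.52 to 53.83 and 52.32 CPM (0.75, SE 0.149, adjusted p = 9.72e-04). There were thus 6.68 ± 0.754 (SD, n = 2) counts of Cox7a2l per count of Cox7a2 in naive WT cells and 0.862 ± 0.0583 (n = 2) after culture. In the Il6ra-/- cells the ratio was 6.94 ± 0.0926 (n = 2) and 0.847 ± 0.0198 (n = 2). Of the 50-base stretches of Cox7a2l, 13.83% occur also in a pseudogene on chromosome 12, and Cox7a2 shares none.

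Cox5a, a subunit on the matrix side of complex IV, had 43.4 and 37.79 CPM in naive WT and 100.9 and 101.2 CPM in cultured WT cells (1.32, SE 0.0985, adjusted p = 4.88e-07). The small subunits Cox5b, Cox8a and Ndufa4 rose by 0.51, 0.33 and 0.53, of which Cox8a no longer passed without replicate 2 of the hyper-IL-6 libraries (0.30). Ndufa4 was first assigned to complex I and is now counted with complex IV. Cox4i1, the isoform of subunit 4 found in most tissues, had 284.9 and 199.3 CPM in naive and 221 and 220.8 CPM in cultured WT cells. These ranges overlap (log2 fold change -0.13, adjusted p = 0.46), and Cox6a1 likewise did not pass (0.01, SE 0.207). In complex IV as a whole 8 of 14 tested nuclear genes were higher and Cox7a2l alone was lower.

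In complex III 6 of 7 nuclear genes rose. Uqcrfs1, the Rieske iron-sulfur protein, went from 96.82 and 68.72 to 129.3 and 124 CPM (0.61, SE 0.135, adjusted p = 0.00189). The core proteins Uqcrc1 and Uqcrc2 rose by 0.37 and 0.61, and the small subunit Uqcr11 by 1.13. The call of Uqcrc1 was lost without replicate 1 of the hyper-IL-6 libraries (0.36) or without naive WT replicate 2 (0.23). The exception was Uqcrh, the hinge protein beside cytochrome c1, with 109.7 and 82.79 CPM in naive and 69.15 and 65.52 CPM in cultured WT cells (-0.51, SE 0.128, adjusted p = 0.00422).

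Complex II split by subunit. The membrane anchor Sdhd had 48.44 and 44.83 CPM in naive and 86.68 and 88.92 CPM in cultured WT cells (0.91, SE 0.0886, adjusted p = 3.92e-06). The other anchor Sdhc and the iron-sulfur subunit Sdhb rose by 0.46 and 0.54. Sdha, the flavoprotein that oxidises succinate, had 250 and 258 CPM in naive and 236.8 and 223.5 CPM in cultured WT cells, which do not overlap but did not pass the test (-0.14, adjusted p = 0.133).

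In complex I 13 of 35 nuclear genes were higher, 8 lower and 14 did not pass, which is 21 called against a background of 70.3% of all genes (36.8% higher, 33.5% lower). Of the 7 nuclear genes of its catalytic core 2 were higher and none lower. These were Ndufv2 (0.57) and Ndufs8 (0.70), both iron-sulfur subunits, named after their values were seen. Ndufs1 and Ndufv1, of the NADH-oxidising arm, changed by 0.20 (adjusted p = 0.0662) and 0.19 (adjusted p = 0.225). Of the 28 accessory subunits 11 were higher and 8 lower, which is near the same background. Ndufa12, of the peripheral arm, went from 15.79 and 11.06 to 41.52 and 41.26 CPM (1.63, SE 0.164, adjusted p = 5.32e-06). Ndufb6, of the membrane arm, went from 20.28 and 14.62 to 40.16 and 35.91 CPM. In the other direction Ndufa6 went from 45.65 and 33.26 to 21.06 and 20.02 CPM (-0.94, SE 0.149, adjusted p = 1.91e-04), and Ndufa3 fell by 0.73 on the log2 scale. Ndufa12 shares 17.74% of its stretches with a pseudogene and Ndufb6 31.56% with the gene Smim27.

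The mitochondrially coded genes fell by unequal amounts. mt-Nd5, a proton-pumping subunit of complex I, had 1507 and 1958 CPM in naive WT and 646.8 and 659.2 CPM in cultured WT cells (-1.41, SE 0.121, adjusted p = 1.51e-06). mt-Co1 had 5891 and 6598 CPM in naive and 3924 and 3669 CPM in cultured cells (-0.72, SE 0.093, adjusted p = 4.01e-05). mt-Cytb went from 2254 and 2485 to 1506 and 1401 CPM. None of these groups overlapped. mt-Nd4, mt-Nd1, mt-Nd2 and mt-Nd6 fell by between 0.51 and 0.65 on the log2 scale. There were 1.16 ± 0.152 (SD, n = 2) counts of mt-Nd5 per count of mt-Nd1 in naive WT and 1.39 ± 0.0141 (n = 2) in naive Il6ra-/- cells. The ratio was 0.644 ± 0.0633 (n = 2) with IL-6, 0.637 ± 0.00462 (n = 2) with hyper-IL-6 and 0.593 ± 0.0654 (n = 2) in Il6ra-/- cells with hyper-IL-6. The fall of mt-Nd6 no longer passed without replicate 1 of the hyper-IL-6 libraries or without naive WT replicate 2, at -0.32 and -0.40.

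The other 2 comparisons with naive cells gave values of the same kind. Cells cultured with IL-6 were set against the same naive WT libraries, so their values are not independent. There, 39 nuclear genes were higher and 12 lower, where 70.6% of all genes passed (37.0% higher, 33.6% lower), and 6 mitochondrially coded genes were lower. Cox7a2l changed by -2.21, mt-Nd5 by -1.43, Atp5b by 1.14 and Cox5a by 1.34. In Il6ra-/- cells with hyper-IL-6 against their own naive cells, 52 nuclear genes were higher and 5 lower, where 72.0% of all genes passed (37.5% higher, 34.4% lower). Their median was 0.61. There, Cox7a2l changed by -1.86 (adjusted p = 1.24e-07), mt-Nd5 by -1.55 (adjusted p = 6.64e-07), Atp5b by 1.34, Cox5a by 1.75 and Atp5g1 by 1.91. Sdha passed as lower by 0.22 (adjusted p = 0.0308), and Cox4i1 as higher by 0.38 (adjusted p = 0.0471). The call of Sdha was lost on leaving out any 1 of its 4 libraries (-0.25 to -0.16), and that of Cox4i1 with RLE size factors, with DESeq2, with the replicate block, or without hyper-IL-6 replicate 2 (0.23), naive replicate 1 (0.47) or naive replicate 2 (0.30). Uqcrh, lower in WT, changed by 0.04. mt-Nd6, also lower in WT, had a mean of 20.1 CPM in cultured and 20.6 CPM in naive Il6ra-/- libraries. The test of the difference between the genotypes is given further on. In WT, the count of lower genes was 13 without replicate 1 of the hyper-IL-6 libraries, in place of 20 with the mitochondrial ones included, and 11 in place of 18 without replicate 1 of the IL-6 libraries.

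**Figure D4:**
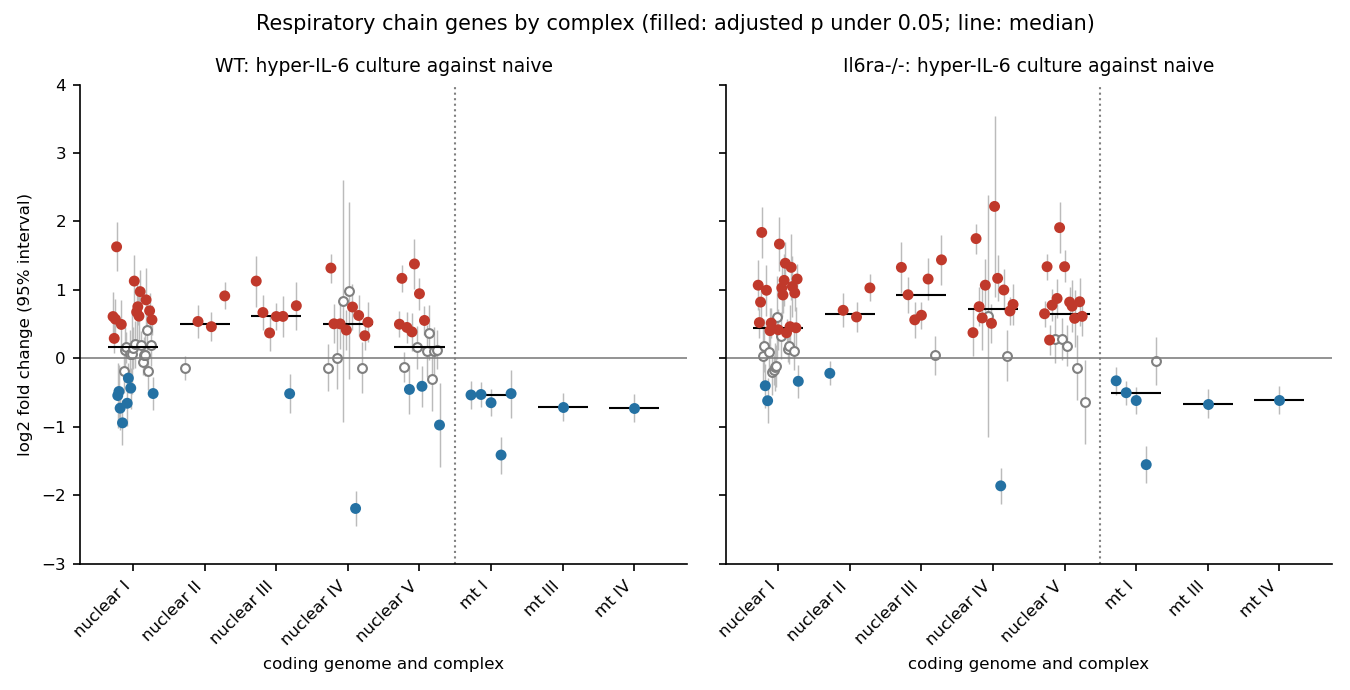
Log2 fold change of each tested gene, hyper-IL-6 culture against naive cells, for WT (left) and Il6ra-/- (right) cells, with 95% intervals and a line at the median of each group, by coding genome and complex. The mitochondrially coded genes with appreciable counts all lie below 0, though mt-Nd6 lies only just below it in Il6ra-/- cells. The medians of the 5 nuclear groups lie above 0, with Cox7a2l far below the rest of complex IV.

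Genes that build and serve the chain were compared by lists, whose counts are to be read against the 36.8% of all genes that were higher and the 33.5% that were lower in this comparison. Of 77 tested genes of the mitochondrial ribosome 54 were higher and 2 lower in WT cells with hyper-IL-6 than in naive cells (median 0.62), with Mrps6 up by 2.70 and Mrpl12 by 1.90. Of 45 assembly factors 24 were higher and 9 lower (median 0.40). Ndufaf4, which helps assemble complex I, went from 26.8 ± 3.98 to 78.8 ± 2.56 CPM (SD, n = 2), and Uqcc2, needed for complex III, rose by 1.73. Among 22 electron carriers and other chain proteins 15 were higher and 2 lower. The largest rise there was that of Chchd4, which imports small proteins into the space between the membranes, from 10.7 ± 2.46 to 68.7 ± 6.06 CPM (SD, n = 2). Genes of ubiquinone synthesis and handling followed, with Coq10b at 2.03, Coq7 at 1.90 and Coq3 at 1.79.

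Against the same background, 15 of 28 genes that copy, read and translate mitochondrial DNA were higher and 5 lower. Elac2, which trims mitochondrial tRNAs, rose by 1.57, and Polg2, an accessory subunit of the mitochondrial DNA polymerase, went from 47.1 ± 11.9 to 11.2 ± 0.199 CPM (SD, n = 2). Of 12 regulators 5 were higher and 2 lower (median -0.02). Hif1a went from 126 ± 10.1 to 894 ± 7.34 CPM (SD, n = 2) and Myc from 153 ± 22.6 to 824 ± 4.13 CPM. Ppargc1b, a coactivator of mitochondrial genes, fell by 1.55 on the log2 scale. Of 18 genes of the citric acid cycle 9 were higher and 2 lower, with Idh3a at 1.70 and Idh2 at -2.35. Of 8 genes for carriers of nucleotides and phosphate 5 were higher and 1 lower, Vdac1 by 1.35 and Slc25a5 by 1.23 among the higher ones. Of 10 genes tied to supercomplexes, the inner membrane and hypoxia 8 were higher and 2 lower, and Pdk1, which turns off pyruvate dehydrogenase, went from 591 ± 16 to 56.3 ± 3.31 CPM (SD, n = 2). In Il6ra-/- cells against their naive cells the ribosome list had 63 higher and 2 lower and the assembly factors 24 higher and 7 lower, where 37.5% and 34.4% of all genes passed.

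Other genes moved with the same contrast. The summed level of 16 cell cycle genes was 408 to 523 CPM in naive and 3170 to 3590 CPM in cultured libraries, and all 16 rose in WT cells. Of 7 B cell markers the summed level was 409 to 462 CPM in naive and 3.41 to 6.84 CPM in cultured libraries. None of these markers was at 0 in the naive groups. Epithelial markers overlapped, with sums of 23.6 to 26.2 CPM in naive and 18 to 27.6 CPM in cultured libraries. So did myeloid markers, at 29.8 to 70.4 CPM in naive and 21.7 to 50.9 CPM in cultured libraries. The summed level of 10 stromal and endothelial markers was 245 to 310 against 13.1 to 29.3 CPM, and Col1a2, Dcn, Lum and Pdgfra were at 0 in naive cells, where Pecam1 alone had 277 ± 46.1 CPM (SD, n = 2, WT). The part of these cells and of cell division in the subunit values was not tested.

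The members' promoters were read from RefSeq (GRCm38.p6, 250 bases before to 50 after each start), where 67 of the 83 nuclear members had an entry. The motif of the factor NRF1 (GCGC, any base, T and GCGC in this order, searched on both strands like the others) was found in 17 of them (25.37%), in 5.188% of 27025 genes in the table and in 11.63% of 9818 tested coding genes. The letters CCGGAAG of ETS factors were in 16 (23.88%, against 9.928% and 20.3%). AANATGGCG, a motif of YY1, was in 10 (14.93%, against 2.764% and 5.918%), and the E-box CACGTG was in 6 (8.955%, against 8.093% and 11.6%). The 17 members with the NRF1 letters had a median log2 fold change of 0.16 in WT hyper-IL-6 culture against naive cells and the 48 tested members without them 0.36. A match describes the letters in the window and is not a measured binding site. The 2 promoters below show the letters in capitals in members that moved in opposite directions, Ndufs5, an accessory subunit of complex I (log2 fold change 0.86), and Atp5h, of the stalk of ATP synthase (-0.41, a call that was lost without naive WT replicate 1 or hyper-IL-6 replicate 2). They had the largest rise and fall among members past the threshold with letters placed as follows. The letters had to lie upstream of a RefSeq start near the beginning of a GENCODE transcript. The match ends 88 bases before the start in Ndufs5 and 131 bases before it in Atp5h.

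Ndufs5, chr4:123718187-123718436 (-): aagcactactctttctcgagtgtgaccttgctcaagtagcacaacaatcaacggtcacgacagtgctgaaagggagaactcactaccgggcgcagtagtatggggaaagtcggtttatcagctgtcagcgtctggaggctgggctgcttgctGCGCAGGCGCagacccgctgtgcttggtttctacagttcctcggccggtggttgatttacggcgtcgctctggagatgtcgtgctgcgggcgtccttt
Atp5h, chr11:115419920-115420169 (-): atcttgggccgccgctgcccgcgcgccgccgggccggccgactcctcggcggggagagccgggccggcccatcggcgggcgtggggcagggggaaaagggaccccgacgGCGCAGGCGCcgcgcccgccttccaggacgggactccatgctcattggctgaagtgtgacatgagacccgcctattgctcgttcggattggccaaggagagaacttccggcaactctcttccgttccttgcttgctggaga

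The comparison of hyper-IL-6 with IL-6 in WT cells asks whether the form of the cytokine bears on these genes. No member passed in edgeR's quasi-likelihood test or in DESeq2, none had an unadjusted p under 0.05 in edgeR, and 0% of all genes passed. The median over the nuclear members was -0.002. For Atp5b the difference was 0.03 with a 95% interval from -0.167 to 0.217, for Sdha 0.02 (-0.153 to 0.2), for mt-Cytb 0.07 (-0.136 to 0.277) and for Cox7a2l 0.03 (-0.231 to 0.282). These intervals bound the differences and do not show that the levels are equal.

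Between cells labelled Il6ra-/- and WT after hyper-IL-6 culture no member passed in edgeR or in DESeq2, none had an unadjusted p under 0.05 in edgeR, and 0% of all genes passed. The difference was 0.03 for Atp5b (-0.16 to 0.224), 0.05 for mt-Co1 (-0.157 to 0.253) and 0.09 for Cox7a2l (-0.171 to 0.342). In naive cells no member passed in edgeR or DESeq2 either, against 0.00670% of all genes, but 30 of 88 had an unadjusted p under 0.05 in edgeR, as did 10.4% of all genes. The median over the 77 nuclear genes was -0.27, and 75 of the 77 values were negative. Ndufv2 had 52 and 44.83 CPM in WT and 36 and 36.5 CPM in Il6ra-/- naive cells, groups that do not overlap (-0.42, SE 0.1, adjusted p = 0.297). Cox5a differed by -0.32 (adjusted p = 0.367) and Cox4i1 by -0.46 (adjusted p = 0.378). These values rest partly on naive WT replicate 1: without it the median was -0.09, and without replicate 2 it was -0.42 and 27 members passed as lower. The difference between the genotypes in the change from naive to cultured cells had a median of 0.33, positive in 74 of 77 nuclear genes. No member passed in edgeR or DESeq2, and no gene at all in edgeR (0%), while 21 of 88 members had an unadjusted p under 0.05 in edgeR, as did 8.49% of all genes. Without naive WT replicate 2, 15 members passed as higher.

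The comparison of colon with pre-transfer cells asks what happened to these transcripts after 4 weeks in the host. In WT cells 11 of 77 nuclear genes were lower and none higher, and 1 of 7 mitochondrially coded genes, mt-Nd6, was lower. Of all genes 32.9% passed, 17.1% higher and 15.8% lower, so the share of members that passed was below the background. The median over the nuclear genes was -0.69. In cells labelled Il6ra-/- 3 nuclear genes and mt-Nd6 were lower, against 27.0% of all genes (13.8% higher, 13.2% lower), and the nuclear median was -0.04. With the experiment as a term, 11 members in WT and 4 in Il6ra-/- were lower. Each experiment gave 1 library per genotype before transfer, and experiment 1 also 1 per genotype from the colon, so the comparison was not tested within an experiment.

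The WT counts depend on single libraries. Without WT replicate 1 before transfer, the one with high nuclear subunit levels, 2 members were lower (Cox6b2 and Cox7a1) and the nuclear median was -0.11. Without WT replicate 0 before transfer, 51 were lower and 5 higher. Without colon WT replicate 1 or colon WT replicate 2, 4 were lower each, and without colon WT replicate 0, 2 mitochondrially coded genes passed as higher. With the replicate number as a block, 5 members were lower: Cox4i2, Cox6b2, Cox7a1, Ndufv3 and mt-Nd6. In Il6ra-/- cells leaving out either library before transfer gave 2 lower members in place of 4, and leaving out any of the 3 colon libraries gave 1.

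The tissue-restricted isoforms of complex IV were low before transfer and lower still in the colon. Cox7a1, the isoform of heart and muscle, had 2.865 and 4.015 CPM in WT and 2.486 and 0.7262 CPM in Il6ra-/- libraries before transfer. In the colon it had 0.4219, 0.356 and 0.2076 CPM in WT and 0.4045, 0.1647 and 0.3422 CPM in Il6ra-/- libraries, below every library before transfer. The log2 fold change was -3.36 (SE 0.664, adjusted p = 0.00383) in WT and -2.35 (SE 0.671, adjusted p = 0.0247) in Il6ra-/- cells. The Il6ra-/- call was lost with the replicate block (-2.18), without replicate 0 before transfer (-1.24) and without colon replicate 0 (-2.61), 1 (-2.08) or 2 (-2.43). Cox6b2, known from testis and named after its values were seen, had 0.7044 and 13.28 CPM in WT and 1.126 and 6.152 CPM in Il6ra-/- libraries before transfer. In the colon it was at 0.07031, 0 and 0 CPM in WT and at 0.1156, 0.08234 and 0.2738 CPM in Il6ra-/- libraries (adjusted p = 0.00307 and 0.0205). The Il6ra-/- call of Cox6b2 was lost without replicate 1 before transfer or colon replicate 0 or 1. The 2 libraries of a genotype before transfer differed from each other by more than 5-fold. Cox4i2, an isoform of lung and of cells that sense oxygen, was at 0.2719 to 2.032 CPM before transfer and at 0 in 5 of 6 colon libraries (adjusted p = 0.0158 in WT and 0.0216 in Il6ra-/-). The WT call was lost without replicate 1 before transfer or colon replicate 1 or 2, and the Il6ra-/- call without replicate 1 before transfer or colon replicate 0 or 2. Fitted folds against groups so near 0 are no bounds and are left out.

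mt-Nd6 had 68.52 and 61.46 CPM in WT before transfer and 26.72, 18.29 and 36.67 CPM in the colon (-1.26, SE 0.355, adjusted p = 0.0208). In Il6ra-/- libraries it had 64.2 and 30.33 CPM before and 25.66, 18.11 and 16.02 CPM after (-1.24, SE 0.357, adjusted p = 0.0251). Every colon library of a genotype was below every library of that genotype before transfer. The WT call was lost on leaving out any 1 WT library other than colon replicate 2, with values from -1.34 to -1.03. The Il6ra-/- call was lost without replicate 0 before transfer (-0.63) and without colon replicate 1 (-1.18) or 2 (-1.11). The other 6 mitochondrially coded genes did not pass in either genotype. mt-Co1 had 6726 and 4033 CPM in WT before transfer and 7346, 7117 and 16200 CPM in the colon, and 5609 and 6719 against 6026, 6773 and 5877 CPM in Il6ra-/- libraries. These groups overlap in Il6ra-/-, and in WT the highest colon library is the one that stands apart. The median over the mitochondrially coded genes in WT was 0.93, and 0.48 without that library. DESeq2, unlike edgeR, passed 5 of them as higher in WT.

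Among the nuclear genes of most tissues Ndufv3, an accessory subunit of complex I, had 93.69 and 205.3 CPM in WT before transfer and 68.13, 68.49 and 61.31 CPM in the colon (-1.18, SE 0.271, adjusted p = 0.00804). Without WT replicate 1 before transfer the value was -0.52 and did not pass. Uqcrh had 169.8 and 538.2 CPM before and 158.4, 174.4 and 146.8 CPM after, so the library at 538.2 CPM sets the difference (-1.15, adjusted p = 0.0399), which was -0.10 without it. This call was also lost without any 1 of the 3 colon libraries (-1.21 to -1.11). Sdhd, the complex I subunit Ndufc1 and Atp5d, the delta subunit of the rotor stalk, were lower by 0.76, 1.16 and 1.13 on the log2 scale. Without WT replicate 1 before transfer they changed by -0.47, -0.57 and -0.37 and did not pass. Ndufc1 and Atp5d did not pass either without colon WT replicate 1 or 2, nor Sdhd without colon WT replicate 0 or 2. So were Ndufc2, Ndufv2 and Atp5j2, named after their values were seen, by 0.89, 0.77 and 1.06. Without WT replicate 1 before transfer these were -0.51, -0.44 and -0.32, and none of the 3 passed then or without colon WT replicate 1 or 2. In Il6ra-/- cells none of these 8 genes passed. Of other catalytic or core subunits in WT, Sdha changed by 0.11 (adjusted p = 0.694), Ndufs1 by 0.17 (0.516), Uqcrc2 by -0.05 (0.828) and Atp5a1 by -0.14 (0.623), none of which passed. Cox7a2l, the gene with the largest fall in culture, changed by -0.36 (adjusted p = 0.527) in WT and -0.04 (adjusted p = 0.959) in Il6ra-/- cells.

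**Figure D5:**
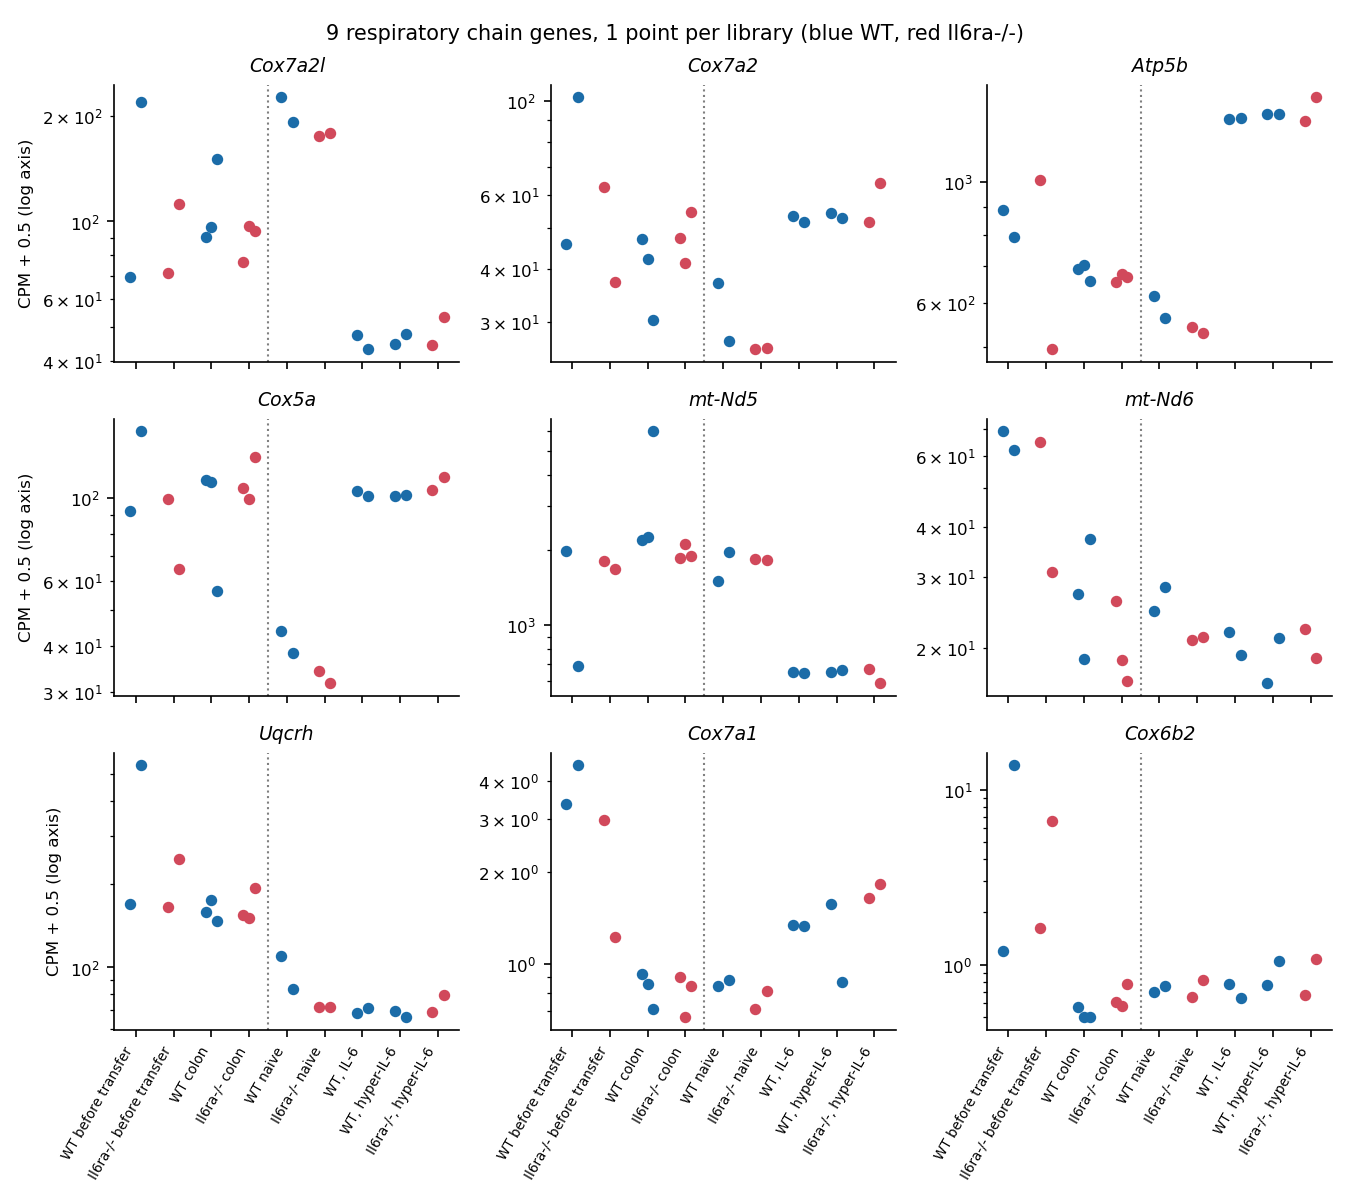
Level of 9 members in each library on a log axis (CPM + 0.5), with transfer libraries left of the dotted line and culture libraries right of it. Cox7a2l and mt-Nd5 are low and Atp5b and Cox5a high in the 6 cultured libraries against the 4 naive ones, Uqcrh and Cox6b2 show the spread between libraries before transfer, and Cox7a1 and mt-Nd6 lie lower in the colon.

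Of the 8 lists of genes around the chain, the one tied to supercomplexes, the inner membrane and hypoxia had the largest share of lower genes in the colon. Of 10 tested, 7 were lower in WT (median -0.89) and 5 in Il6ra-/- cells (median -0.63), and none higher. Bnip3, a mitophagy receptor induced by hypoxia, went from 118 ± 10.6 (SD, n = 2) to 0.748 ± 0.205 CPM (SD, n = 3) in WT and from 80 ± 26.7 to 0.556 ± 0.12 CPM in Il6ra-/- cells. Pdk1 fell by 2.30 and 2.39 on the log2 scale and Higd1a, which binds supercomplexes, by 2.44 and 1.62. Of 76 genes of the mitochondrial ribosome 1 was higher and 20 lower in WT, and 6 were lower in Il6ra-/- cells. The background of lower genes was 15.8% of all genes in WT and 13.2% in Il6ra-/- cells, and that of higher genes 17.1% and 13.8%. Of 45 assembly factors 7 and 2 were lower and 1 higher in each genotype. Sdhaf1, needed for complex II, fell by 2.04 and 1.43, and Sco1, which delivers copper to complex IV, by 1.15 and 1.31. Myc fell by 2.10 and 1.98, while Ppargc1b rose by 1.77 and 1.18 and Polg2 by 1.57 and 1.31. Vdac1, the main pore of the outer membrane, fell by 1.61 and 1.32.

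Markers of several other cell types moved with the same contrast. The 10 stromal and endothelial markers overlapped between the stages. They summed to 126 to 180 CPM in WT and 119 to 160 CPM in Il6ra-/- colon libraries. Their sums before transfer were 131 to 141 and 143 to 151 CPM. The summed level of 12 epithelial markers was 210 to 819 CPM in WT and 185 to 410 CPM in Il6ra-/- colon libraries against 34 to 116 CPM before transfer. All 12 reached 1 CPM in both colon groups. Of 16 myeloid markers the summed level was 274 to 786 CPM against 114 to 228 CPM, and of 5 erythroid markers 4.77 to 11.6 CPM against at most 0.0991 CPM. Of 7 tested markers of CD8, NK and gamma-delta T cells 4 were higher and 1 lower in WT, and 6 higher in Il6ra-/- cells. The 7 B cell markers went the other way in WT, from 55.27 and 139.3 CPM in sum before transfer to 30.37, 20.07 and 17.3 CPM in the colon, while the Il6ra-/- libraries overlapped (82.96 and 129.4 against 85, 37.54 and 43.8 CPM). The 16 cell cycle genes summed to 1750 to 2794 CPM in the colon, against 4929 and 5464 CPM before transfer in replicate 0 and 2365 and 2665 CPM in replicate 1, and 9 of them were lower in WT. The part of these cells and of cell division in the subunit values was not tested.

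Between the genotypes in the colon, where both had shared hosts, no member passed in edgeR or DESeq2 and none had an unadjusted p under 0.05 in edgeR, while 0.155% of all genes passed in edgeR (0.0633% higher, 0.0914% lower). Atp5b had 693.1, 703.1 and 658.3 CPM in WT and 656.1, 677 and 669.7 CPM in Il6ra-/- libraries, which overlap (-0.04, 95% interval -0.558 to 0.484). Cox4i1 had 215.1, 230 and 188 against 197.1, 203.6 and 250.2 CPM (0.04, -0.616 to 0.696), which overlap as well. Sdha had 268.4, 279.6 and 342.7 against 244.4, 225.9 and 221.5 CPM, which do not overlap (-0.36, -0.743 to 0.0146). The 7 mitochondrially coded genes all had negative values, with a median of -0.64, and -0.21 without colon WT replicate 2. The nuclear median was 0.08, and -0.07 without that library.

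Before transfer no member passed between the genotypes in edgeR or DESeq2, against 0.00703% of all genes, and 3 of 84 had an unadjusted p under 0.05 in edgeR, as did 2.43% of all genes. These were Ndufv3 (-0.76), Ndufs4 (-0.77) and Ndufb10 (-0.78), named after their values were seen. The nuclear median was -0.57, with 73 of 77 values negative, but 0.01 without WT replicate 1. Without WT replicate 0 it was -0.96 and 13 members passed as lower. The difference between genotypes in the change from culture to colon had a nuclear median of 0.62, and 0.03 without WT replicate 1. No member passed in edgeR or DESeq2 and none had an unadjusted p under 0.05 in edgeR, where no gene passed (0%). Without WT replicate 0 before transfer, 8 members passed as higher.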

How the data were processed

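The authors deposited whole-number read counts per gene, 1 file for each of 20 libraries. They were made on GRCm38 with STAR 2.5.3 and HTSeq 0.7.2 among the tools that the submitters' processing notes name, without roles (also SAMtools 0.1.18). The 5 summary lines of each file were left out. Symbols came from GENCODE M21, which held 37693 of the 39179 gene IDs. Transfer and culture libraries were fitted apart with edgeR 4.0.16 (quasi-likelihood test, TMM, filter by group, group as only factor) in R 4.3.3, on 14225 and 14926 genes, in 12 comparisons. DESeq2 1.42.0, RLE factors, scaling from nuclear genes, no filter, the compared groups only, an experiment term, the replicate block and each library left out were alternatives. The members and lists were chosen with earlier results of these data known. Genes named are a set of 40 members, the 5 largest called changes in each direction (minimum mean 2 log2 CPM), up to 4 genes per list, and Il6ra. Of these, 1 member is counted in the totals but not reported here by name or in the heat map. Same-numbered libraries of the 2 genotypes shared hosts or experiments per the labels and were taken as pairs within a stage for genotype comparisons. Their deviations correlated across genes at 0.43 before transfer, 1 value for both pairs by construction, and at 0.58, 0.237 and 0.183 in the colon. Colon libraries of unlike number in experiment 2 correlated about as much. Il6ra-/- replicate 2 with WT replicate 1 gave 0.279, and Il6ra-/- replicate 1 with WT replicate 2 gave 0.205. The correlations thus do not set the pairs of replicates 1 and 2 apart. For colon against pre-transfer cells the block was the replicate number, shared across stages. No pre-transfer library was numbered 2, so colon replicate 2 had no pre-transfer partner in its block. Across stages same-numbered libraries correlated at between -0.143 and 0.0793. On simulated counts the test recovered 28% of 2-fold and 65% of 4-fold changes in the colon genotype comparison (13987 genes), and 72% and 83% for hyper-IL-6 against IL-6 (14667 genes).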

Additional observations from a re-analysis of the deposited data

How the results depend on the processing

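In WT colon against pre-transfer cells, 0 members were higher and 12 lower. Without the low-count filter they were 4 and 24, with DESeq2 6 and 19, with the compared groups only 4 were lower, and on leaving out 1 library 0 to 5 were higher and 2 to 51 lower. With the replicate number as a block across stages, 5 were lower. In genotype comparisons the block paired libraries within a stage. The block moved the calls of all genes from 22 to 94 between the colon genotypes and from 1 to 5 before transfer, and no call of a member in a genotype comparison. In the culture experiment same-numbered libraries correlated at between -0.164 and 0.156. With 2 libraries per group these values cannot settle whether such libraries were pairs. With the block, 38 and 19 members were higher and lower in WT hyper-IL-6 against naive cells in place of 37 and 20. On leaving out 1 library, the lower members were 1 to 2 in Il6ra-/- colon against pre-transfer cells (4 with all), 13 to 22 in WT hyper-IL-6 culture (20 with all), 11 to 22 in IL-6 culture (18 with all), 0 to 13 between genotypes before transfer and 0 to 27 between naive genotypes. The higher members were 0 to 8 in the genotype by stage and 0 to 15 in the genotype by culture term. Against naive cells, 31 to 48 were higher in WT hyper-IL-6 culture (37 with all) and 30 to 48 in IL-6 culture. In Il6ra-/- hyper-IL-6 culture against naive cells 43 to 52 were higher and 8 to 10 lower. Without the filter 11 members were lower in naive Il6ra-/- cells and 4 higher in the genotype by culture term. The causes of these shifts were not tested.

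As percent of all unique reads, the mitochondrially coded share was 1.22 and 1.27 in WT and Il6ra-/- cells before transfer, 1.83 and 1.18 in WT and Il6ra-/- colon, 0.937 and 0.878 in naive WT and Il6ra-/-, and 0.64, 0.651 and 0.673 in IL-6, WT hyper-IL-6 and Il6ra-/- hyper-IL-6 culture. The nuclear share was 0.706 and 0.511 in WT and Il6ra-/- cells before transfer, 0.392 and 0.401 in WT and Il6ra-/- colon, 0.37 and 0.302 in naive and 0.553, 0.554 and 0.582 in cultured cells. A larger denominator lowers every share by construction. Of the values of single genes under the alternatives, 6031 kept their side of the threshold, 341 of them with another sign and none of these past the threshold under either setting. A further 92 passed it newly and 117 no longer passed, with the sign kept. With 2 or 3 libraries per group, the spread between libraries limits the precision.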
